A study of Saccharomyces cerevisiae with 4 samples.

Results

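The arms of chromosome V were described origin by origin in *WT* and *rif1Δ* cells held in hydroxyurea (HU). They were taken as 20 to 132 kb on the left and 172 to 556.8 kb on the right, by the coordinates of genome release R64, which leaves out 20 kb at each chromosome end and the pericentromere. Of the 392 origins that the study listed as having a BrdU peak in either strain, 16 have their midpoint here, 3 on the left arm and 13 on the right, and 14 of them carry an ARS name. The other 7 listed origins of this chromosome lie outside these limits. HU inhibits ribonucleotide reductase, and forks from the origins that fire first stall close by for want of nucleotides. Bromodeoxyuridine (BrdU) marks the DNA made until then. Per the study, HU also keeps origins that have not yet fired from firing, by way of the intra-S checkpoint.

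Both strains were W303-derived haploids of mating type **a**, and both carried *can1-100*, *trp1-1*, *ura3-1*, *ade2-1* and *his3-11,15*, with *BAR1* disrupted as *bar1Δ::hisG* and the cassette *LEU2::BrdU-Inc*, which lets yeast take up and use BrdU. *CAN1* and *URA3* lie on the left arm of chromosome V, and their mutant alleles are thus in both strains. In *rif1Δ* cells *RIF1* was replaced by KanMx. Cells were arrested in G1 with 7.5 nM α-factor for 4 h at 23 °C and released with pronase (200 µg/mL) into HU, given as 0.2 M in the methods and without a unit in the labels, with 400 µg/mL BrdU for 45 min. Each strain gave 2 libraries, and the immunoprecipitated DNA was sequenced (BrdU-IP-Seq).

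The values are the authors' mean signal of the 2 libraries of a strain in bins of 50 bp. With 1 value per strain, replicate error is unknown and differences between the strains could not be tested, and the read depth behind a bin is unknown too. Over the deleted gene itself, *RIF1*, the mean was 3.09 (*WT*) against 0.433 (*rif1Δ*), and over all nuclear bins it was 12.6 against 12.1. No genome sequence was used here, so no origin sequence is shown.

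Budding yeast origins are short sites called ARS elements, where the origin recognition complex binds and the replicative helicase is loaded in G1. Each origin then fires at its own typical time in S phase. Rif1 is a telomere-binding protein that recruits protein phosphatase 1, which counteracts the Dbf4-dependent kinase needed for firing, so that late origins stay late. The right arm holds a classic late origin, ARS522, first described as ARS501, whose late firing depends on its chromosomal surroundings. The study sorted its origins by the change of the peak between strains into Rif1-repressed (higher in *rif1Δ*), Rif1-activated (lower) and Rif1-unregulated. Those classes come from the same libraries as the profile, so that a ratio in the direction of its class is no independent evidence.

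The signal of an origin is the mean over bins within 500 bp of its midpoint, and log2 ratios are log2((*rif1Δ* + 1)/(*WT* + 1)), which makes the change of a weak origin look smaller. An origin was called higher or lower past a log2 ratio of 1 or -1. Of the 16 origins, 3 were higher in *rif1Δ* cells, against 41.6% of all 392 listed origins. On the other side, 4 were lower, against 8.93% of all listed origins, and 1 of these 4, ARS519, had no peak of its own. The count of 4 depended on the measure. It was 2 by the highest bin, 2 with equal nuclear signal or equal chromosome V signal, and 1 with a pseudocount of 10. With the single bin at the midpoint it was 3, and with the mean over 5 kb it was 5. The remaining 9 lay between these bounds. With no bound at all, 7 of the 16 were higher in *rif1Δ* cells, against 65.6%. The median log2 ratio was -0.08 over the 16 origins and 0.58 over all 392, and with the strains scaled to equal signal over chromosome V, which adds about 0.31 to the log2 ratio of strong origins, it was 0.22. The authors' scaling between strains is unknown, and equal nuclear signal would add about 0.06.

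**Figure D1:**
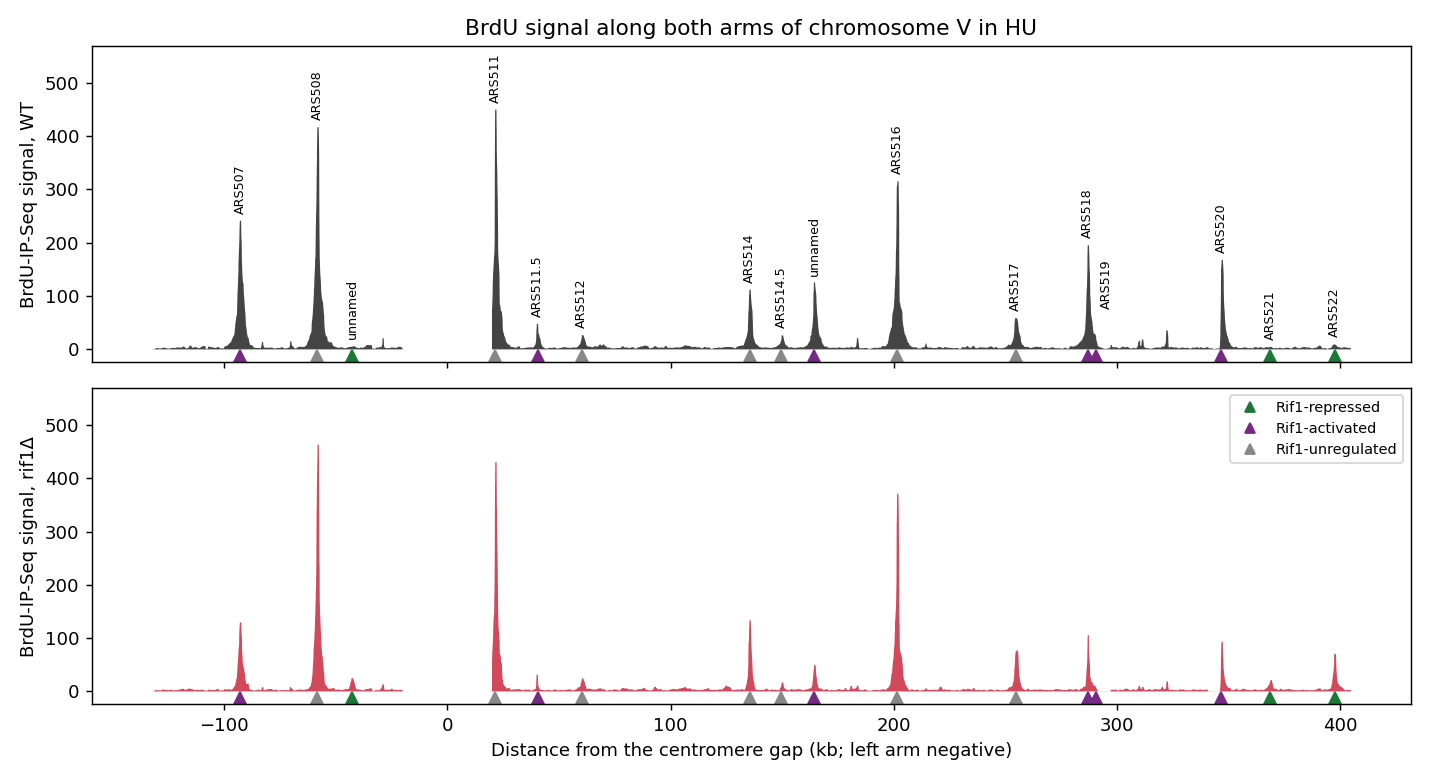
BrdU-IP-Seq signal (authors' mean of 2 libraries, 50 bp bins) against distance from the centromere gap in kb, *WT* above and *rif1Δ* below, with the ends and the pericentromere left out. Triangles mark the 16 listed origins by class. ARS508, ARS511 and ARS516 stand above 300 in both strains, while ARS522 near the right end has a clear peak only in the lower panel, 70.9 against 9.50 in *WT*.

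A background threshold was set in each strain at the 99th percentile of the mean signal of 1 kb windows. The 5565 windows lie at least 10 kb from any listed origin, and the threshold was 13.5 in both strains. In *WT* cells 13 of the 16 origins exceeded it, against 64% of all listed origins. In *rif1Δ* cells 15 did, against 91.1%. The 3 below it in *WT* cells were the Rif1-repressed origins, and the 1 below it in *rif1Δ* cells was ARS519. The difference between the strains depended on the percentile. With a stricter one, 10 origins exceeded the threshold in *WT* and 10 in *rif1Δ* cells, and with a looser one 14 and 16 did. By the order of signal, ARS522 was the only Rif1-repressed origin among the 10 in *rif1Δ* cells. Entry to the list took a peak in at least 1 strain, so an origin silent in *WT* cells entered it only through *rif1Δ* cells.

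The Rif1-repressed origins come first, since they are the 3 origins past a log2 ratio of 1. ARS522 (chromosome V, 549560 to 549809) lies 27.2 kb from the right end. Its interval begins just past *DMC1*, a meiotic recombinase gene, and overlaps *ISC10*, a gene needed for spore formation. Its signal rose from 8.75 (*WT*) to 68.1 (*rif1Δ*), a 7.78-fold difference (log2 ratio 2.82). In *WT* cells a low rise with a highest bin of 9.50 was present there, below the background threshold, whereas the *rif1Δ* peak reached 70.9 and stayed above a signal of 20 over 2.25 kb. ARS522 moved from place 14 to place 9 among the 16 origins by signal. Even so, its *rif1Δ* signal was only place 193 among all 392 listed origins.

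ARS521 (520767 to 521025) lies 56.0 kb from the right end and overlaps the last bases of *BCK2*, a cell cycle gene. The next gene to its right is *CCA1*, which encodes the enzyme that adds CCA ends to tRNAs. The signal of ARS521 rose from 4.58 to 20.4, or 4.46-fold (log2 ratio 1.94). The *WT* profile had no peak there, with a highest bin of 4.63, and the *rif1Δ* peak was small (highest bin 21.4, above 20 over 0.750 kb).

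The third, an unnamed origin inside the open reading frame YEL023C on the left arm (108553 to 110467, the widest interval of the 16 at 1915 bp), rose from 5.34 to 24.4, or 4.57-fold (log2 ratio 2.00). It lies 41.5 kb from the centromere and 109.5 kb from the left end, far from any telomere. The 3 origins rose from *WT* levels below the background threshold, where ARS522 was already the highest of them. In *rif1Δ* cells ARS522 stood well above the others. Together their surroundings within 5 kb held 0.470% of the signal above background on the arms in *WT* and 5.13% in *rif1Δ* cells.

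**Figure D2:**
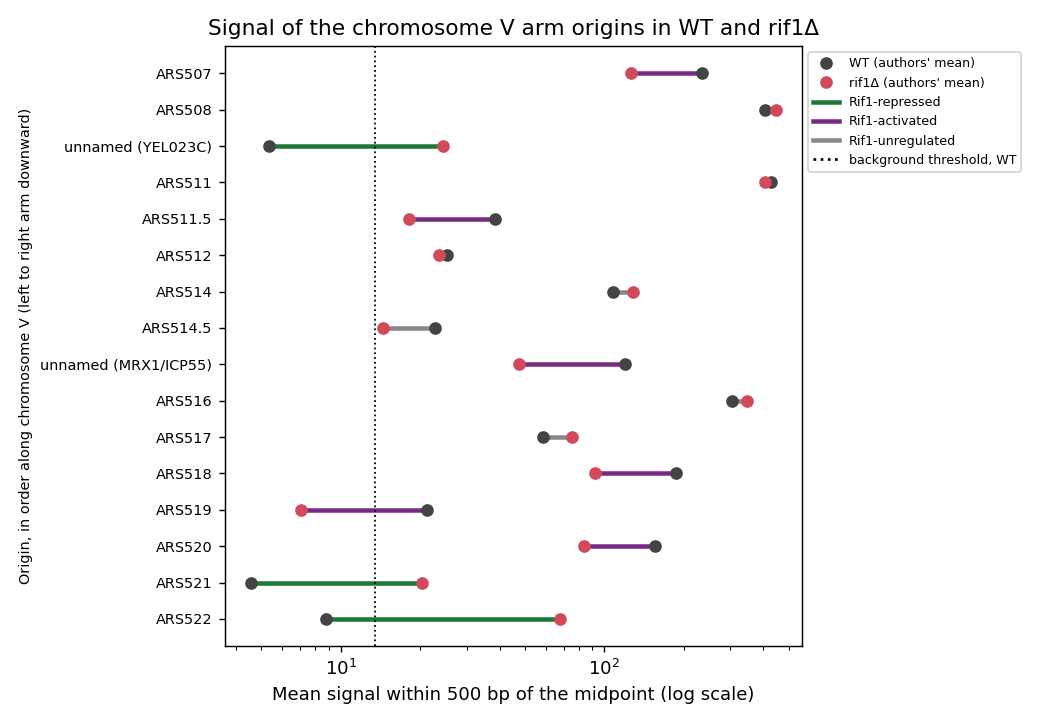
Mean signal within 500 bp of the midpoint (log axis) of the 16 origins, in order along the chromosome, in *WT* (grey points) and *rif1Δ* (red points). The line between the points is colored by class and the dotted line is the *WT* background threshold of 13.5. The 3 Rif1-repressed origins cross the threshold upward, and ARS519 crosses it downward, from 21.2 to 7.05.

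The Rif1-activated class made up 37.5% of the 16 origins, against 20.7% of all 392 listed ones. These 6 origins all had a lower signal in *rif1Δ* cells, and kept that direction with the strains scaled to equal signal over the nuclear bins or over chromosome V. The unnamed origin across the ends of *MRX1* and *ICP55*, genes for mitochondrial proteins (316043 to 317307, right arm), fell from 120.1 in *WT* to 47.5 in *rif1Δ* cells (log2 ratio -1.32), and its stretch above 20 shrank from 4.95 to 1.90 kb. ARS518 (438929 to 439178, just right of a tRNA gene) fell from 186 to 92.4, or to 0.496 of the *WT* signal, right at the bound. ARS511.5 (192493 to 192926, across the divergent starts of *SPC25*, a kinetochore gene, and *ISC1*, a sphingolipid hydrolase gene) fell from 38.5 to 18.1 (log2 ratio -1.05). The peak of ARS511.5 lay to the left of the listed midpoint in both strains, at -334.5 bp in *WT* and -409.5 bp in *rif1Δ* cells, and by the highest bin its log2 ratio was -0.60.

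ARS507 and ARS520 stayed just inside the bound. With the mean over 5 kb both passed it, at -1.06 and -1.11, while ARS511.5 did not, at -0.97. ARS507 (59282 to 59516, between *VMA8*, a vacuolar ATPase gene, and *RML2*, a mitochondrial ribosomal protein gene) had 234 in *WT* against 126 in *rif1Δ* cells (log2 ratio -0.88). ARS520 (498417 to 499343, left of *SPT2*, a chromatin gene) had 156 and 83.8 (log2 ratio -0.89). Both ratios are near 0.54 on the linear scale, 0.541 and 0.537. Summed over the 6 origins the signal was 756 (*WT*) against 375 (*rif1Δ*).

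ARS519 (442412 to 442731, overlapping *SCR1*, the RNA of the signal recognition particle) had the largest fall of the 16, from 21.2 in *WT* to 7.05 in *rif1Δ* cells (log2 ratio -1.47), but no peak of its own in either profile. It lies 3.52 kb to the right of ARS518 by midpoints, and from 1 kb right of ARS518 to 1 kb past ARS519 none of 73 steps between neighboring bins went up, in *WT* or in *rif1Δ* cells. A shoulder lay 600 bp left of its midpoint, at 29.4 (*WT*) and 11.2 (*rif1Δ*). Its value therefore cannot be told apart from the right flank of ARS518, and without it 3 of 15 origins were below -1.

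Ty1 retrotransposons border both ARS519 and ARS520. Bins from 443451 to 449000 over the Ty1 genes YER138C and YER137C-A had a mean of 2.55 (*WT*) and 0.257 (*rif1Δ*), and bins from 492751 to 498050 over YER160C and YER159C-A had 1.79 and 0.264, the lowest values of the *rif1Δ* profile on the arms. Values this low give no reading of BrdU there. The left side of ARS520 ends at this stretch, with a mean 2 kb to the left of the midpoint of 1.5 in *WT* but 0.25 in *rif1Δ* cells, against 35.4 and 13.2 on the right.

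**Figure D3:**
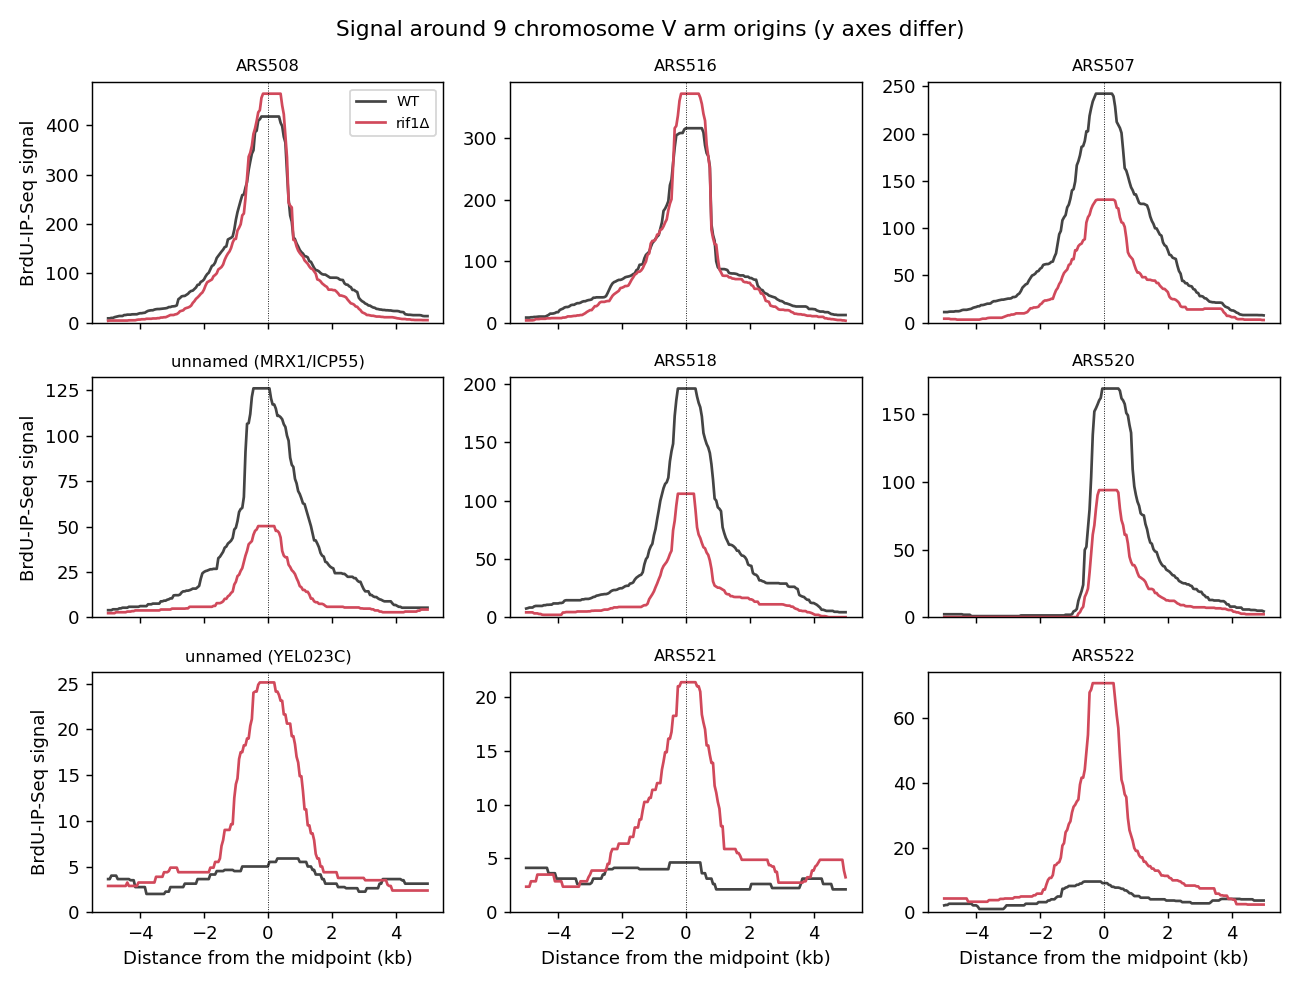
Signal against distance from the listed midpoint (kb) around 9 origins, *WT* in grey and *rif1Δ* in red, with a y axis of its own in each panel. ARS508 and ARS516 are higher in *rif1Δ* at the center but lower on the flanks. ARS507, the unnamed *MRX1*/*ICP55* origin, ARS518 and ARS520 are lower throughout. The 3 origins in the bottom row rise from a low *WT* line.

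The 7 Rif1-unregulated origins (43.75% of the 16, against 34.9% of all listed origins) include the strongest on these arms and moved least. ARS511 (173636 to 173874, left of *TIR1*, a cell wall gene) had 428 in *WT* and 407 in *rif1Δ* cells. ARS508 (93977 to 94218, between *SPF1*, an endoplasmic reticulum ATPase gene, and *ECM10*, a mitochondrial chaperone gene) had 407 and 447. ARS516 (353504 to 353751, right of *SHC1*, a chitin synthesis gene) had 305 and 349. These 3 held the top places in both strains, and within 5 kb of them lay 50.3% of the signal above background on the arms in *WT* and 60.4% in *rif1Δ* cells. Their log2 ratios were -0.07, 0.13 and 0.19.

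Weaker members of the class spread more. ARS514 (287504 to 287750, between *ICL1*, the isocitrate lyase gene, and a tRNA gene) had 108 in *WT* and 128 in *rif1Δ* cells, and ARS517 (406747 to 406949, between *YCK3*, a casein kinase gene, and *DSE1*, a cell separation gene) had 58.6 and 75.1. ARS512 (212381 to 212630, overlapping the end of the snRNP gene *SMB1*) was weak in both, at 25.3 and 23.6. ARS514.5 (301565 to 302061) lies across the ends of *RNR1*, the large subunit of the enzyme that HU inhibits, and *TDA2*. Its values of 22.9 (*WT*) and 14.5 (*rif1Δ*) gave the only log2 ratio of the class beyond 0.5 in size, -0.63. Summed over the 7 origins the signal was 1355 (*WT*) against 1444 (*rif1Δ*).

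The order of the 16 origins by signal was largely kept between strains (Spearman's rho 0.83 across origins, which share their libraries). ARS522, ARS514 and the unnamed YEL023C origin gained the most places, 5, 4 and 4, and ARS511.5 lost 4. The log2 ratio had little relation to distance from the centromere on these arms (rho 0.08 over the 16 origins). ARS520, which was lower in *rif1Δ* cells, lies 345 kb from the centromere gap and is followed by ARS521, which rose, at 367 kb.

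Peaks were narrower in *rif1Δ* cells, with or without a change in height. Width was measured at 0.5 of the height above the background median, for peaks whose highest bin exceeded the threshold in both strains. All 13 such peaks (12 without ARS519) were narrower in *rif1Δ* cells, against 88.3% of the 273 such peaks over all listed origins, so that narrowing was common to the genome. The median width was 1800 bp in *WT* over these 13 peaks. For *rif1Δ* it was 1500 bp over the 16 peaks above the threshold, and the 13 shared peaks changed by a median of -350 bp, against -400 bp at the arm origins of the other 15 chromosomes. The authors' smoothing over 1 kb acts on every width. The largest narrowings were at ARS511.5, from 1400 to 750 bp, and at ARS518, from 1800 to 1150 bp, and the smallest was at ARS511, from 1500 to 1400 bp.

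**Figure D4:**
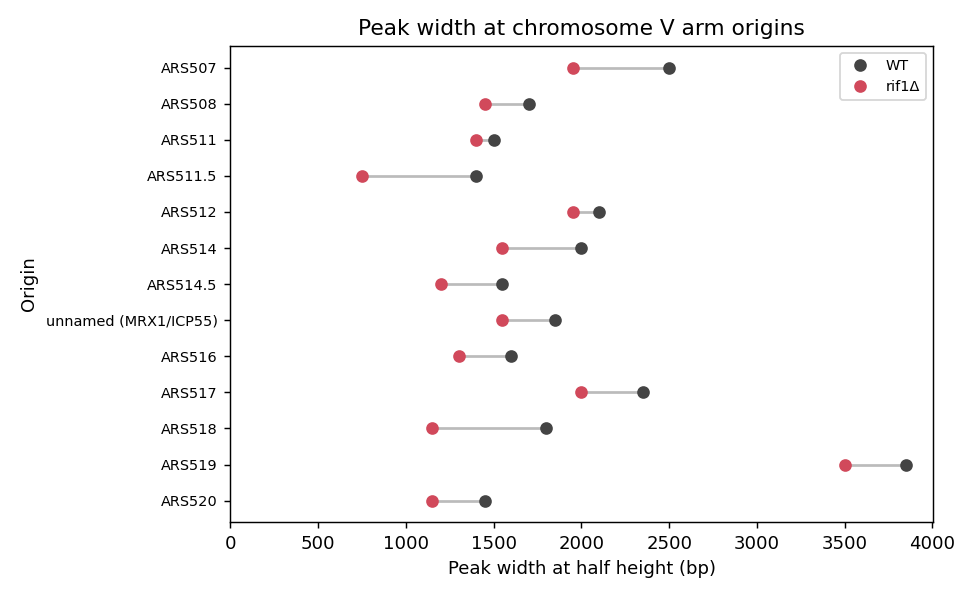
Peak width (bp) at 0.5 of the peak height at the 13 origins whose peak exceeded the background threshold in both strains, *WT* in grey and *rif1Δ* in red. Every red point lies left of its grey partner, and the width drawn for ARS519 is that of the flank of ARS518.

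The mean signal at 1500 to 2500 bp from the midpoint was lower in *rif1Δ* cells at 13 of the 16 origins, against 52% of all 392 listed origins. The exceptions were the 3 Rif1-repressed ones. That class makes up 18.8% of the 16 origins but 44.4% of all listed ones, so the 2 shares compare sets of unlike make-up. At ARS508 it was 93.5 (*WT*) against 68.7 (*rif1Δ*), or 23.0% and 15.4% of the center, although the center was higher in *rif1Δ* cells. At ARS516 it was 69.6 and 58.6, or 22.8% and 16.8% of the center. Relative to the center the flank was not lower everywhere, with 13.8% (*WT*) against 17.02% (*rif1Δ*) at ARS511.5 and 26.4% against 27.4% at ARS512. The count of 13 includes ARS519, whose left flank of 64.4 (*WT*) and 19.6 (*rif1Δ*) is the right flank of ARS518. It also includes ARS520, whose left flank lies in the Ty1 stretch that gives no reading of BrdU. The stretch above 20 went from 8.15 to 5.75 kb at ARS508, from 8.05 to 6.25 kb at ARS516 and from 7.40 to 4.35 kb at ARS507. Over the arms, 71.8 kb exceeded the background threshold in *WT* and 52.2 kb in *rif1Δ* cells, or 14.5% and 10.5% of bins, whereas on the arms of the other 15 chromosomes the shares were 10.3% and 10.7%.

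Within 5 kb of listed origins lay 32.9% of the bins of the arms, and these held 93.3% of the signal above background in *WT* and 94.1% in *rif1Δ* cells. The longest gap, 74.9 kb between ARS512 and ARS514, had a median of 3.63 in *WT* and 3.88 in *rif1Δ* cells away from its ends, and no bin there exceeded 9.38 and 10.6. Other gaps held higher bins, which reached 35.9 (*WT*) against 19 (*rif1Δ*) between ARS519 and ARS520 and 21.0 against 11.1 in the gap left of ARS516.

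Against other chromosomes, the arms of V stood at one end of the range. With the same limits of 20 kb, the other 15 chromosomes hold 298 arm origins with a median log2 ratio of 0.76, of which 131 (44.0%) were above 1 and 25 (8.39%) below -1. Among the 16 chromosomes, V had the lowest median log2 ratio, the lowest share of arm origins above 1 (18.8%) and the lowest ratio of mean arm signal, 0.796 (14.5 in *WT*, 11.5 in *rif1Δ* cells). The mean signal over the arms of the other chromosomes was 10.9 in *WT* and 11.04 in *rif1Δ* cells. Other chromosomes came close, with median log2 ratios of 0.02 on X, 0.02 on III, 0.04 on XIII and 0.20 on XI. The ratio of mean arm signal was below 1 on 9 of the 16 chromosomes, V among them. Chromosome VIII, close in length, had 10 of 15 arm origins above 1, the highest share of all, and chromosome XI 4 of 16. These are descriptions of 1 averaged profile per strain, and no test shows that chromosome V differs from the rest.

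The *WT* level of the arms of V was above that of the other arms pooled, as a description. The median *WT* signal was 83.4 over the 16 origins against 25.5 over the 298. V was not the highest chromosome, since the mean *WT* signal over the arms was 23.1 on III and 16.4 on IX, against 14.5 on V.

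**Figure D5:**
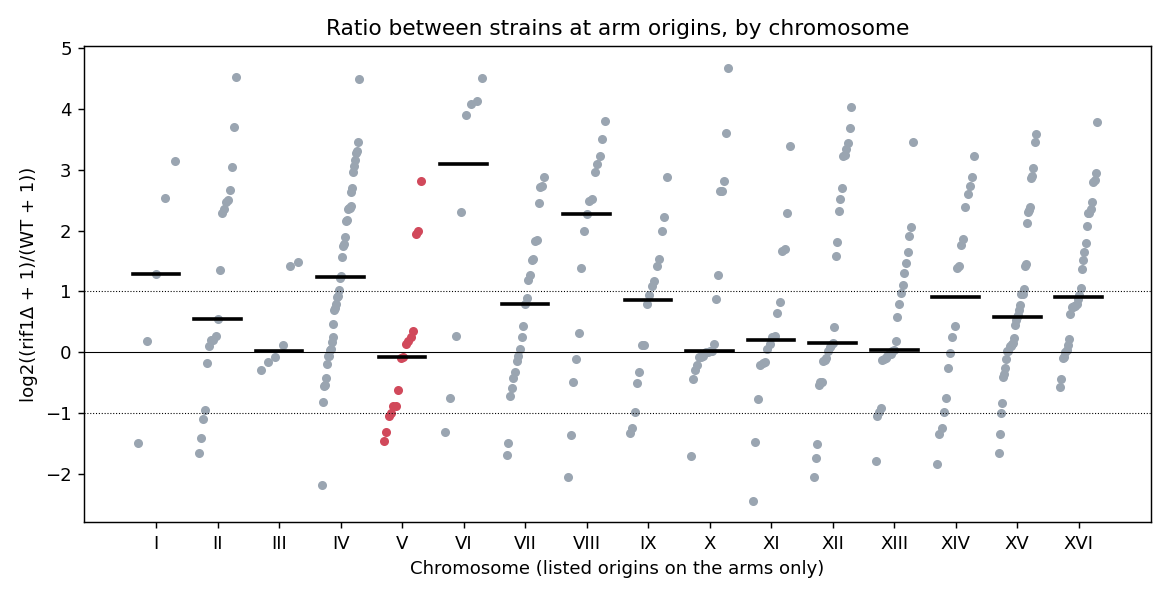
Log2 ratio between strains for each listed arm origin, by chromosome, with chromosome V in red. Black bars are medians and dotted lines mark 1 and -1. The median of chromosome V, -0.08, is the lowest, and 3 of its 16 points lie above 1.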

How the data were processed

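BrdU-IP-Seq was analysed for 4 libraries, 2 per strain. Per the study's methods, the authors used the FASTX toolkit to separate barcodes, aligned reads to R64 with Bowtie2 (bedtools is also in the submitters' processing notes), binned them in 50 bp, median-smoothed over 1 kb, quantile-normalized between replicates, averaged and smoothed again; versions are not given in the sources used here. The deposited signal is this smoothed coverage, 1 averaged column per strain, so depth per library and replicate error cannot be had, and smoothing ties neighboring bins together. The class and position of each origin came from the study's origin list and gene positions from the RefSeq table of R64. All origins with their midpoint in the limits are named, with the genes they overlap or lie between. Members, lists and measures were chosen with earlier results of these data known. Peaks were the highest bin within 2 kb of the interval. Alternatives changed the window, pseudocount, scaling, background, height and thresholds. The measures were tested on simulated data that lacked the authors' smoothing. All 200 simulated log2 ratios came within 0.1 of the value calculated from the heights put in, with background and pseudocount included. They were not compared with the bare ratio put in. Python 3.11.15, numpy 2.4.6 and pandas 2.3.3 were used.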

Additional observations from a re-analysis of the deposited data

Results flagged for a closer look

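Away from the listed origins, by 5 kb or more, the *WT* signal passed 20 in 3 runs of bins on the arms and the *rif1Δ* signal in 0. The highest, at 473901 to 474900 over YER152C and *PET122*, reached 35.9 in *WT* and 19 in *rif1Δ* cells. The run at 335451 to 336050, overlapping *PTC2*, reached 21.0 and 11.1. The run at 123001 to 123550, between *PMP2* and *GTT3*, reached 20.9 and 13.5. The *WT* signal picked these runs, so that a lower *rif1Δ* value there is no finding.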

How the results depend on the processing

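Values without a test are taken to have moved where a log2 ratio changed by more than 0.5 or a count or width by more than 1.5 times. The count of 3 origins above 1 was 3 in all 8 alternatives. The count below -1, 4, was 2 by the highest bin, 2 with equal nuclear signal and 2 with equal signal over chromosome V. It was 1 with a pseudocount of 10, 3 with the single bin at the midpoint and 5 with the mean over 5 kb. ARS518 and ARS511.5 lie close to the bound, and the 5 by the mean over 5 kb include ARS507 and ARS520 but not ARS511.5. Without ARS519, a choice made after seeing the data, it was 3. The median log2 ratio changed sign, to 0.22, with equal signal over chromosome V. The counts of origins above background, 13 in *WT* and 15 in *rif1Δ* cells, both became 10 with a stricter percentile of the background windows. At 0.25 of the height the median widths were 3100 bp in *WT* and 2450 bp in *rif1Δ* cells, wider by construction. A threshold of 10 gave 12 *WT* and 6 *rif1Δ* runs away from listed origins, and one of 40 gave 0 *WT* runs. Of 128 single-origin values, 10 moved, at ARS519 and the Rif1-repressed origins, and 4 changed sign, all at origins whose log2 ratio was at most 0.24 in size. No paired analysis was possible because both libraries of a strain were merged into 1 column, which also bars leaving out a replicate. The unknown depth limits the weak peaks most.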

Other observations

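With a threshold of 10, the runs outside listed origins included some in *rif1Δ* cells that were low in *WT* cells. The bins at 276551 to 277350, overlapping *FCY22*, a gene related to cytosine transporters, reached 10.6 in *rif1Δ* and 4.50 in *WT* cells, and those at 332651 to 333200, over *SBH1* and *DOT6*, reached 10.4 and 4.88. Both lie below the background threshold of 13.5 and were chosen with their values in view.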
